A study of Mus musculus and Rattus norvegicus with 32 samples.

Results

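Hearts of METTL5-cKO mice and of control littermates were compared after transverse aortic constriction (TAC), a surgical narrowing of the aortic arch that makes the left ventricle pump against a raised load. The comparison took in 4 heart libraries labelled Mettl5-cKO TAC and 4 from Ctrl hearts, which are 8 of the 32 samples of the series, and all genes of their table. The Ctrl titles name no surgery, and their place in the TAC experiment comes from a description that both groups share and from the column names. Both groups are C57BL/6 mice labelled as 3-month-old, with hearts collected 4 weeks after TAC. The METTL5-cKO mice carry a METTL5 allele whose exons 2 to 4 are floxed, together with a Cre driven by αMHC (Myh6), so that deletion is directed to cardiomyocytes and other cells of the heart keep the gene. The text of the paper does not say whether the Ctrl littermates carry the Cre or the floxed allele. The part of the Cre itself in the genotype effect was not tested. RNA came from whole heart tissue, and the genotype of each library rests on its label. The libraries of unstressed hearts at 3 months (4 METTL5-cKO and 4 Ctrl) served only for comparison with the genotype effect after TAC. They come from a separate table, and no library of the series is labelled as sham-operated. Effects of surgery and of the separate experiment therefore cannot be told apart from that of TAC.

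METTL5 is the enzyme that places an N6-methyladenosine mark on 18S ribosomal RNA, the RNA of the small ribosomal subunit. A heart under pressure overload is known to lean less on fatty acid oxidation and more on glucose, to remodel its ion currents, and to release peptides and growth factors that act on neighbouring cells. Cells that translate or fold proteins poorly, or that lack amino acids, are known to switch on the integrated stress response, a program in which the factor ATF4 raises genes of amino acid and one-carbon supply.

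Library depth was similar, with total counts from 19899033 to 21804907 over the 8 libraries and 23477 to 24247 genes detected. Libraries are numbered 1 to 4 within each group. METTL5-cKO library 4 stood apart from the other 3 of its group. On the first principal component of log2 CPM (depth-scaled counts, on library sizes set by edgeR's TMM method), which held 42.8% of the variance, it was at -1.88, between the other METTL5-cKO libraries (32.0 to 46.6) and the Ctrl libraries (-34.1 to -18.2). Mitochondrially encoded genes took 35.6% of its counts, against 30.6% to 32.4% in the other METTL5-cKO libraries and 34.5% to 35.6% in the Ctrl libraries. Counts of the gene lists and fold changes are therefore given with all 8 libraries and also without METTL5-cKO library 4, the latter behind each fold change. Fold changes are METTL5-cKO over Ctrl, and errors after ± are the SE.

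The targeted gene, Mettl5 (ENSMUSG00000051730, GRCm38, chromosome 2, 69871198 to 69885615 on the minus strand), was at 7.14, 7.10, 5.62 and 7.13 CPM in Ctrl libraries 1 to 4 and at 7.32, 5.60, 6.39 and 7.04 CPM in METTL5-cKO libraries 1 to 4. The groups overlapped, and the log2 fold change was -0.04 ± 0.12 (adjusted p = 0.874, -0.06 without library 4). This count covers the exons outside the floxed part and all cells of the heart, and Mettl5 shares exon bases with Gm13625 and Ssb, so it does not check the labels, that of library 4 included. The group names below stand for the libraries so labelled.

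After TAC, 1074 of 16340 genes with enough counts to test (6.57%) were higher in METTL5-cKO than in Ctrl hearts and 997 (6.1%) were lower. A call is a Benjamini-Hochberg adjusted p under 0.05 in the quasi-likelihood test of edgeR. Of the called genes, 328 (2.01%) and 146 (0.894%) changed by more than 1 on the log2 scale and are called dysregulated. Without METTL5-cKO library 4, 1973 genes were higher and 1926 lower of 16659 tested, and 2035 of the 2071 genes called with all libraries were called in the same direction. The counts fell to 291 higher and 188 lower without Ctrl library 4 and to 332 and 204 without METTL5-cKO library 2. The groups did not overlap for 3034 genes (18.6%). The gene lists fall into 4 themes, of which ion channels (10 higher and 18 lower of 149) and metabolism (15 and 40 of 202) held more lower than higher genes, and stress (41 and 7 of 219) and secreted factors (46 and 13 of 161) more higher genes. Without METTL5-cKO library 4 the counts of higher and lower genes were 20 and 33 for ion channels, 18 and 86 for metabolism, 53 and 19 for stress and 64 and 23 for secreted factors. In the same order they were 4 and 12, 6 and 7, 12 and 2, and 25 and 5 without Ctrl library 4. They came to 3 and 10, 6 and 8, 16 and 2, and 31 and 7 without METTL5-cKO library 2. Metabolism held nearly as many higher as lower genes in both fits. Among all genes, higher calls outnumbered lower calls there (291 against 188 of 16638 and 332 against 204 of 16551). With scaling by library size alone, which moved the median of all genes up by 0.14, 2060 genes were higher and 524 lower (79.7% of called genes higher, against 51.9% with TMM), ion channels held 19 higher and 15 lower genes, and the order of the other 3 themes kept its direction. Called genes thus ran higher in the whole table with this scaling. The ion channel median stayed at -0.06 relative to that of all genes with both scalings. Relative to the median of all genes, the medians of the 23 lists moved by at most 0.0268 with this scaling.

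**Figure D1:**
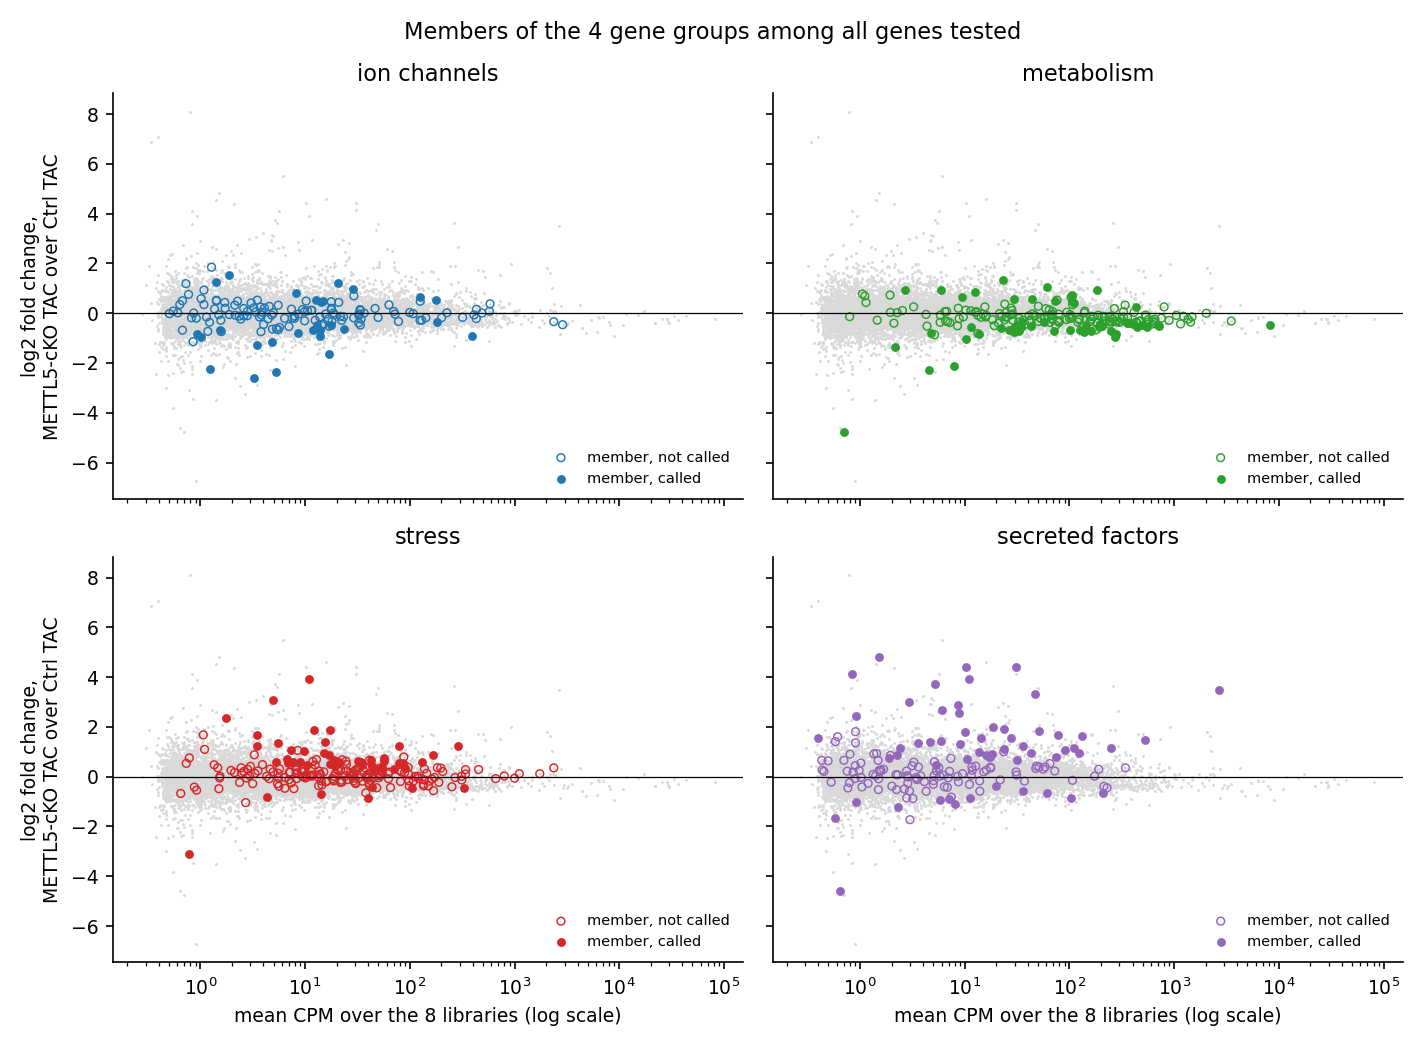
Log2 fold change of METTL5-cKO TAC over Ctrl TAC hearts against the mean CPM over the 8 libraries (log scale) for the 16340 genes tested (grey) and the members of each theme (open circles: not called, filled: called at an adjusted p under 0.05). Called members of metabolism lie mostly below 0, and called stress and secreted factor genes mostly above 0.

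Markers of cell types moved with the genotype as well. Of 12 cardiomyocyte markers 4 were lower, and their summed level was 56880 to 62450 CPM in the Ctrl and 41930 to 53320 CPM in the METTL5-cKO libraries. Of 10 endothelial markers 7 were lower (1429 to 1680 CPM in the Ctrl and 935 to 1298 CPM in the METTL5-cKO libraries), of 10 fibroblast markers 7 were higher (1179 to 1332 CPM in the Ctrl and 1529 to 2764 CPM in the METTL5-cKO libraries), and 6 of 9 tested markers of activated fibroblasts were higher (98.3 to 152 CPM in the Ctrl and 205 to 1338 CPM in the METTL5-cKO libraries). Of 10 macrophage markers 3 were higher (232 to 303 CPM in the Ctrl and 313 to 403 CPM in the METTL5-cKO libraries). In METTL5-cKO library 4 these sums were 53320, 1298, 1529, 205 and 313 CPM, nearest to Ctrl among the METTL5-cKO libraries. Without it, 8 of 12 cardiomyocyte and 8 of 10 endothelial markers were lower, and 8 of 10 fibroblast, 8 of 10 activated fibroblast and 4 of 10 macrophage markers were higher. Of 4 atrial markers tested Nppa was higher and Kcnj3 lower, and of 4 skeletal muscle markers Acta1 was higher and Tnnt1 lower, while Myh1, Myh2 and Myh4 were at 0 in every library. Myl7 and Bmp10 of the 8 atrial markers, Ly6g of the neutrophil markers and Plin1, Cidec, Ucp1, Retn and Lep of the 7 adipocyte markers were at 0 in every library. In bulk tissue, fewer cells of a type and less RNA per cell cannot be told apart.

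Among potassium channel genes, 0 of 43 tested (93 listed) were higher and 7 lower (16.3%), with a median log2 fold change of -0.11, and edgeR's 0 higher stood against 5 higher at an unadjusted p under 0.05 and 2 by DESeq2. The counts were 4 higher and 12 lower of 44 with library 4 of METTL5-cKO left out (median -0.16), against 5 and 7 (median 0.04) with library size alone and all libraries. Kcnj3 encodes a subunit of the potassium channel opened by acetylcholine in atrial and pacemaker cells. It was at 29.8, 26.3, 20.9 and 24.4 CPM in Ctrl libraries 1 to 4 and at 6.45, 6.61, 9.98 and 9.69 CPM in METTL5-cKO libraries 1 to 4. All 4 METTL5-cKO libraries, library 4 included, lay at under 10 CPM, where no Ctrl library was under 20 CPM, and the log2 fold change was -1.63 ± 0.17 (adjusted p = 0.00245, -1.71 without library 4). Kcnd3 encodes the Kv4.3 subunit of the transient outward current, which shapes early repolarisation. Its Ctrl libraries held 10.7, 11.4, 10.6 and 10.96 CPM and its METTL5-cKO libraries 5.22, 6.11, 7.36 and 6.34 CPM. The Ctrl values lay within 1 CPM of each other and the groups did not overlap, with a log2 fold change of -0.80 ± 0.11 (adjusted p = 0.00621, -0.80 without library 4). Kcnv2, a silent subunit that modifies other potassium channels, fell from 5.11, 10.02, 9.16 and 10.6 CPM to 0.745, 1.37, 1.90 and 2.90 CPM (log2 fold change -2.34 ± 0.36, adjusted p = 0.00857, -2.68 without library 4).

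Of sodium channel genes, 2 of 11 tested (18 listed) were higher and 0 lower (18.2%), with a median log2 fold change of 0.19, and edgeR's 0 lower stood against 2 lower at an unadjusted p under 0.05 and 0 by DESeq2. Leaving out METTL5-cKO library 4 gave 3 higher and 1 lower of 11 (median 0.23), and with library size alone and all libraries 2 and 0 (median 0.34). Fgf14, an intracellular FGF that binds sodium channels, was at 0.744, 0.632, 0.780 and 1.21 CPM in Ctrl and 1.84, 2.60, 2.18 and 1.35 CPM in METTL5-cKO hearts. Fgf14 rose (log2 fold change 1.24 ± 0.26, adjusted p = 0.0192, 1.39 without library 4). Among calcium channel genes, 3 of 18 tested (31 listed) were higher and 2 lower (16.7% and 11.1%), with a median log2 fold change of 0.00. With METTL5-cKO library 4 left out, 3 were higher and 2 lower of 19 (median 0.02), and 3 and 1 (median 0.14) in all libraries with scaling by library size alone. The auxiliary subunit gene Cacnb1 was at 5.802, 5.398, 6.40 and 6.55 CPM in Ctrl and 12.3, 10.2, 10.2 and 9.49 CPM in METTL5-cKO hearts. Cacnb1 rose (log2 fold change 0.80 ± 0.11, adjusted p = 0.00638, 0.86 without library 4). Orai2, a pore subunit of store-operated calcium entry, was at 0.992, 1.02, 1.04 and 0.825 CPM in the Ctrl libraries, which were nearly alike, and at 4.03, 3.14, 2.30 and 1.70 CPM in the METTL5-cKO libraries. Its log2 fold change was 1.53 ± 0.27 (adjusted p = 0.0128, 1.70 without library 4), and METTL5-cKO library 4 was the lowest of its group. Cacna1g, which encodes the T-type channel Cav3.1, rose (log2 fold change 0.53 ± 0.13, adjusted p = 0.0305, 0.64 without library 4). Cacna1s, the L-type pore subunit of skeletal muscle, was at 6.94, 6.86, 6.19 and 6.501 CPM in Ctrl and 2.63, 2.87, 2.38 and 3.99 CPM in METTL5-cKO hearts. It fell (log2 fold change -1.16 ± 0.16, adjusted p = 0.00621, -1.33 without library 4), and the auxiliary subunit gene Cacna2d2, near 1 CPM, fell (log2 fold change -0.82 ± 0.22, adjusted p = 0.0400, -0.89 without library 4). Leaving out 1 library ended some calls, namely that of Fgf14 without Ctrl 2 or 3 or METTL5-cKO 2 or 3 (adjusted p up to 0.0589), and those of Cacna1g and Cacna2d2 without Ctrl 1, 2 or 4 or METTL5-cKO 1, 2 or 3 (adjusted p up to 0.0918 and 0.120). The alternatives with all libraries ended those of Cacna1g and Cacna2d2 without the filter on low counts, Cacna2d2 with library size alone, and Cacna2d2 by DESeq2.

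In the list of HCN, cyclic nucleotide, TRP, chloride and mechanosensitive channels, 2 of 39 tested (71 listed) were higher and 6 lower (5.13% and 15.4%), with a median log2 fold change of -0.12. In the fit without METTL5-cKO library 4, 4 were higher and 11 lower of 40 (median -0.17), against 3 and 5 (median 0.02) with library size alone and all libraries. The median thus changed sign with the scaling, as did that of potassium channels. Relative to the median of all genes, this list stayed at -0.12 and potassium channels at -0.10 with both scalings. Clcn1, the chloride channel of skeletal muscle, fell from 3.92, 7.10, 6.82 and 4.56 CPM to 0.482, 0.775, 1.17 and 1.20 CPM. Every METTL5-cKO library, library 4 among them, was at or under 1.20 CPM, and the log2 fold change was -2.62 ± 0.30 (adjusted p = 0.00384, -2.76 without library 4). Trpm4, a cation channel opened by intracellular calcium, was at 13.7, 15.7, 15.4 and 13.8 CPM in Ctrl and 7.67, 8.98, 10.1 and 9.54 CPM in METTL5-cKO hearts. Trpm4 fell (log2 fold change -0.69 ± 0.10, adjusted p = 0.00782, -0.71 without library 4). Cngb3, a cyclic nucleotide gated channel subunit known from cone cells, was low in all libraries (1.29 to 2.72 CPM in the Ctrl and 0.263 to 0.647 CPM in the METTL5-cKO libraries). Cngb3 fell (log2 fold change -2.25 ± 0.37, adjusted p = 0.00995, -2.32 without library 4). The ATP-gated channel genes P2rx5 (10.8 to 12.9 CPM in the Ctrl and 15.03 to 19.3 CPM in the METTL5-cKO libraries) and P2rx4 (10.7 to 14.8 CPM in the Ctrl and 14.4 to 20.6 CPM in the METTL5-cKO libraries) both rose. P2rx5 rose (log2 fold change 0.45 ± 0.10, adjusted p = 0.0262, 0.49 without library 4). P2rx4 rose (log2 fold change 0.51 ± 0.13, adjusted p = 0.0366, 0.60 without library 4). Some calls did not survive the loss of 1 library, namely that of P2rx5 without Ctrl 2, 3 or 4 or METTL5-cKO 2 (adjusted p up to 0.0686), and that of P2rx4 without Ctrl 1, 2 or 4 or METTL5-cKO 1, 2 or 3 (adjusted p up to 0.107). With all libraries, calls were also lost for P2rx4 without the filter on low counts.

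Of genes for calcium handling and ion pumps, 3 of 38 tested (45 listed) were higher and 3 lower (7.89% and 7.89%), with a median log2 fold change of -0.01. Without METTL5-cKO library 4 the counts were 6 higher and 7 lower of 39 (median -0.01), and with library size alone and all libraries 6 and 2 (median 0.13). Both shares were near those of all genes (6.57% and 6.1%). Hrc, a calcium-binding protein in the lumen of the sarcoplasmic reticulum, was at 512, 532, 465 and 525 CPM in Ctrl libraries 1 to 4 and at 222, 235, 227 and 404 CPM in METTL5-cKO libraries 1 to 4. METTL5-cKO libraries 1 to 3 lay close together, and library 4 lay between them and the Ctrl libraries. The log2 fold change was -0.90 ± 0.19 (adjusted p = 0.0184, -1.15 without library 4). Trdn, the triadin that anchors the calcium release complex, fell (log2 fold change -0.36 ± 0.09, adjusted p = 0.0281, -0.34 without library 4). Slc8a1 encodes the sodium-calcium exchanger, the main route of calcium out of the cardiomyocyte. It was at 117, 107, 77.5 and 90.3 CPM in Ctrl and 196, 162, 142 and 109.6 CPM in METTL5-cKO hearts, where library 4 overlapped the Ctrl libraries. Slc8a1 rose (log2 fold change 0.64 ± 0.18, adjusted p = 0.0482, 0.78 without library 4). The beta subunits of the sodium pump moved in opposite directions, since Atp1b1 (113 to 177 CPM in the Ctrl and 181 to 231 CPM in the METTL5-cKO libraries) rose (log2 fold change 0.52 ± 0.13, adjusted p = 0.0359, 0.58 without library 4), and Atp1b2 (19.02 to 23.2 CPM in the Ctrl and 13.9 to 17.4 CPM in the METTL5-cKO libraries) fell (log2 fold change -0.49 ± 0.10, adjusted p = 0.0182, -0.56 without library 4). Fxyd6, a small modulator of the same pump, was at 20.2, 18.2, 22.9 and 16.8 CPM in Ctrl and 53.4, 44.2, 34.4 and 19.1 CPM in METTL5-cKO hearts. Its METTL5-cKO library 4 lay inside the Ctrl range. Fxyd6 rose (log2 fold change 0.95 ± 0.27, adjusted p = 0.0449, 1.18 without library 4). Calls lost with 1 library left out were that of Hrc without Ctrl 2 or 4 or METTL5-cKO 2 (adjusted p up to 0.0616), that of Trdn without Ctrl 2, 3 or 4 or METTL5-cKO 2 or 3 (adjusted p up to 0.0928), those of Slc8a1 and Atp1b1 without Ctrl 2, 3 or 4 or METTL5-cKO 1, 2 or 3 (adjusted p up to 0.124 and 0.0979), that of Atp1b2 without Ctrl 2 or METTL5-cKO 2 (adjusted p up to 0.0619), and that of Fxyd6 without Ctrl 1, 2, 3 or 4 or METTL5-cKO 1, 2 or 3 (adjusted p up to 0.121). Also lost were the calls of Trdn, Slc8a1, Atp1b1 and Fxyd6 without the filter on low counts, and Trdn with library size alone. Kcnj3, Kcnd3, Fgf14, Cacnb1, Cacna1s, Cacna2d2, Clcn1, Atp1b1 and Slc8a1 share exon bases with another annotated gene, so that their counts are uncertain to that extent. The sum of the cardiomyocyte markers was lower in METTL5-cKO hearts. The ion channel and calcium handling genes named moved in both directions beside it, and its part in the result was not tested.

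**Figure D2:**
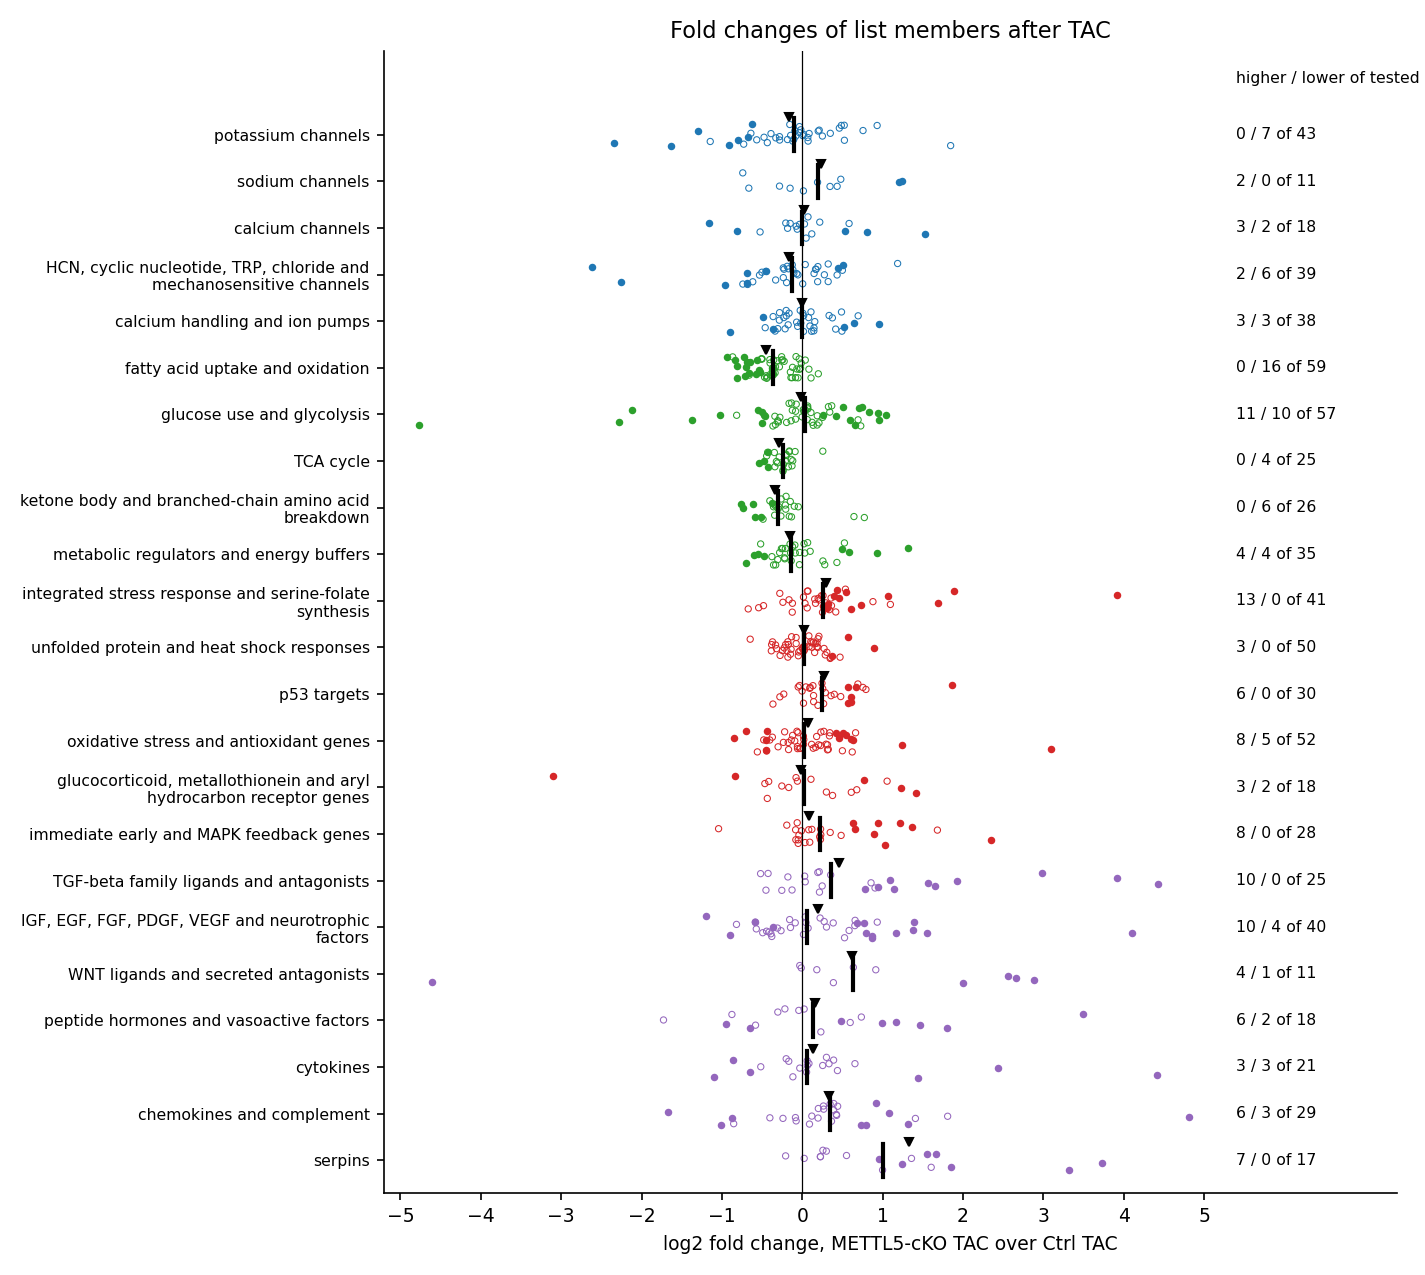
Log2 fold change (METTL5-cKO TAC over Ctrl TAC) of each tested member of the 23 gene lists, coloured by theme (open: not called, filled: called). Black bars mark the median with all 8 libraries and triangles the median without METTL5-cKO library 4, and the counts at the right are those of higher and lower members. The fatty acid list has a median of -0.37 and the serpins one of 1.00.

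Of genes for fatty acid uptake and oxidation, the main fuel route of the adult heart, 0 of 59 tested (60 listed) were higher and 16 lower (27.1%), with a median log2 fold change of -0.37, and edgeR's 0 higher stood against 0 higher at an unadjusted p under 0.05 and 0 by DESeq2. The counts were 0 higher and 34 lower of 59 with library 4 of METTL5-cKO left out (median -0.45), and 0 and 11 (median -0.23) in all libraries with scaling by library size alone. Fold changes were below 0 for 55 of the 59 members with all libraries. Decr1, the reductase that lets unsaturated fatty acids enter beta-oxidation, was at 191, 206, 178 and 218 CPM in Ctrl and at 93.04, 118, 126 and 142 CPM in METTL5-cKO hearts. Decr1 fell (log2 fold change -0.72 ± 0.13, adjusted p = 0.0127, -0.81 without library 4). Etfb, a subunit of the flavoprotein that takes electrons from the acyl-CoA dehydrogenases, was at 325, 369, 359.5 and 363 CPM in Ctrl and 175, 166, 172 and 279 CPM in METTL5-cKO hearts. METTL5-cKO libraries 1 to 3 were at under 180 CPM and library 4 was nearer to the Ctrl libraries, with a log2 fold change of -0.84 ± 0.16 (adjusted p = 0.0155, -1.04 without library 4). Cpt2, which releases fatty acids from carnitine inside the mitochondrion, was at 143, 122, 101 and 127 CPM in Ctrl and 66.1, 82.6, 71.5 and 90.97 CPM in METTL5-cKO hearts. Cpt2 fell (log2 fold change -0.66 ± 0.13, adjusted p = 0.0159, -0.74 without library 4). Over the 16 members called lower, the mean log2 level relative to the Ctrl mean was -1.005, -0.69, -0.65 and -0.34 in METTL5-cKO libraries 1 to 4. These members were called from the same libraries, so a level below Ctrl follows from the choice. Over all 59 tested members the median was -0.65, -0.37, -0.40 and -0.13 in these libraries. The calls lost when single libraries were left out were that of Etfb without Ctrl 4 or METTL5-cKO 2 (adjusted p up to 0.0533), and that of Cpt2 without Ctrl 4 (adjusted p up to 0.0545). The share of mitochondrially encoded counts and the cardiomyocyte marker sum, both lower in METTL5-cKO libraries 1 to 3 than in Ctrl, moved with this list, and their part in the result was not tested.

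Of genes for glucose use and glycolysis, 11 of 57 tested (60 listed) were higher and 10 lower (19.3% and 17.5%), with a median log2 fold change of 0.03. Leaving out METTL5-cKO library 4 gave 13 higher and 15 lower of 57 (median -0.02), against 16 and 7 (median 0.18) with library size alone and all libraries. Hk1, the hexokinase isoform of most tissues, was at 79.6, 79.7, 75.9 and 78.6 CPM in Ctrl libraries 1 to 4 and at 149.5, 137, 127 and 113 CPM in METTL5-cKO libraries 1 to 4. The Ctrl libraries lay within 4 CPM of each other, and the log2 fold change was 0.74 ± 0.09 (adjusted p = 0.00481, 0.82 without library 4). Eno1, the enolase isoform of most tissues, was at 60.1, 59.6, 60.4 and 60.8 CPM in Ctrl and 95.4, 87.1, 81.3 and 78.98 CPM in METTL5-cKO hearts. Eno1 rose (log2 fold change 0.51 ± 0.07, adjusted p = 0.00781, 0.55 without library 4). Among genes that fell, Fbp2, the fructose bisphosphatase of muscle, was at 13.3, 12.1, 12.9 and 13.5 CPM in Ctrl and 1.71, 2.37, 3.23 and 4.69 CPM in METTL5-cKO hearts. The groups lay far apart, with library 4 the highest of the METTL5-cKO libraries, and the log2 fold change was -2.11 ± 0.24 (adjusted p = 0.00384, -2.39 without library 4). Pfkfb1, which makes and removes the activator of phosphofructokinase, fell from 9.12, 8.46, 5.72 and 7.13 CPM to 1.36, 0.547, 1.94 and 2.45 CPM (log2 fold change -2.28 ± 0.34, adjusted p = 0.00782, -2.54 without library 4).

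Of genes of the tricarboxylic acid cycle, 0 of 25 tested (25 listed) were higher and 4 lower (16%), with a median log2 fold change of -0.24, and edgeR's 0 higher stood against 1 higher at an unadjusted p under 0.05 and 1 by DESeq2. With METTL5-cKO library 4 left out, 0 were higher and 12 lower of 25 (median -0.29), and with library size alone and all libraries 1 and 3 (median -0.09). Suclg1, a subunit of succinyl-CoA ligase, was at 235, 232, 198 and 234 CPM in Ctrl and 144, 146, 145 and 185 CPM in METTL5-cKO hearts. Suclg1 fell (log2 fold change -0.54 ± 0.10, adjusted p = 0.0155, -0.62 without library 4). Sdhb, the iron-sulfur subunit of succinate dehydrogenase, was at 565, 562, 564 and 589 CPM in Ctrl and 389, 377, 363 and 516 CPM in METTL5-cKO hearts, with library 4 close to the Ctrl libraries. Sdhb fell (log2 fold change -0.47 ± 0.11, adjusted p = 0.0302, -0.59 without library 4). Idh3b of isocitrate dehydrogenase fell (log2 fold change -0.43 ± 0.11, adjusted p = 0.0362, -0.54 without library 4). Among genes that break down ketone bodies and branched-chain amino acids, 0 of 26 tested (26 listed) were higher and 6 lower (23.1%), with a median log2 fold change of -0.30, and edgeR's 0 higher stood against 1 higher at an unadjusted p under 0.05 and 0 by DESeq2. In the fit without METTL5-cKO library 4, 1 was higher and 14 lower of 26 (median -0.34), and 0 and 5 (median -0.15) in all libraries with scaling by library size alone. Bckdhb, a subunit of the dehydrogenase that commits branched-chain keto acids to breakdown, was at 36.1, 38.7, 32.5 and 40.7 CPM in Ctrl and 19.5, 19.1, 19.7 and 29.1 CPM in METTL5-cKO hearts. Bckdhb fell (log2 fold change -0.76 ± 0.14, adjusted p = 0.0148, -0.92 without library 4). Ppm1k, the phosphatase that activates this dehydrogenase, fell (log2 fold change -0.59 ± 0.12, adjusted p = 0.0187, -0.64 without library 4). Mccc2, of leucine breakdown, was at 43.6, 41.2, 34.03 and 43.5 CPM in Ctrl and 23.3, 25.6, 27.6 and 30.1 CPM in METTL5-cKO hearts. Mccc2 fell (log2 fold change -0.61 ± 0.11, adjusted p = 0.0130, -0.66 without library 4). Leaving out 1 library ended some calls, namely those of Suclg1 and Bckdhb without Ctrl 4 or METTL5-cKO 2 (adjusted p up to 0.0568 and 0.0526), those of Sdhb and Idh3b without Ctrl 1, 2, 3 or 4 or METTL5-cKO 1, 2 or 3 (adjusted p up to 0.0948 and 0.107), and that of Ppm1k without Ctrl 2 or 4 or METTL5-cKO 2 (adjusted p up to 0.0641). With all libraries, calls were also lost for Sdhb and Idh3b without the filter on low counts. The mitochondrially encoded share and the cardiomyocyte marker sum moved with both lists, and their part in the result was not tested.

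Among metabolic regulators and energy buffers, 4 of 35 tested (36 listed) were higher and 4 lower (11.4% and 11.4%), with a median log2 fold change of -0.14. Without METTL5-cKO library 4 the counts were 4 higher and 11 lower of 35 (median -0.16), against 5 and 4 (median 0.00) with library size alone and all libraries. Slc6a8, which carries creatine into the cell, was at 92.6, 86.4, 85.6 and 83.8 CPM in Ctrl and 128, 122, 126 and 112 CPM in METTL5-cKO hearts. Slc6a8 rose (log2 fold change 0.49 ± 0.07, adjusted p = 0.00761, 0.54 without library 4). Ckb, the brain isoform of creatine kinase, rose (log2 fold change 0.59 ± 0.12, adjusted p = 0.0199, 0.60 without library 4). The orphan nuclear receptor gene Nr4a1 was at 7.79, 20.4, 13.5 and 11.1 CPM in Ctrl and 43.6, 29.4, 28.8 and 29.8 CPM in METTL5-cKO hearts. Nr4a1 rose (log2 fold change 1.32 ± 0.26, adjusted p = 0.0173, 1.37 without library 4). Mb, the oxygen-binding myoglobin, was at 9276, 9236, 9396 and 9916 CPM in Ctrl and 6775, 6530.4, 6040.4 and 7857 CPM in METTL5-cKO hearts. Mb fell (log2 fold change -0.48 ± 0.11, adjusted p = 0.0236, -0.55 without library 4). Mlxipl, a glucose-sensing transcription factor, fell (log2 fold change -0.70 ± 0.16, adjusted p = 0.0257, -0.86 without library 4), and Rxrg, the retinoid X receptor gamma, fell (log2 fold change -0.60 ± 0.13, adjusted p = 0.0225, -0.74 without library 4). Some calls did not survive the loss of 1 library, namely that of Ckb without Ctrl 2 or 4 or METTL5-cKO 2 (adjusted p up to 0.0655), that of Nr4a1 without Ctrl 4 (adjusted p up to 0.0608), and those of Mb, Mlxipl and Rxrg without Ctrl 2, 3 or 4 or METTL5-cKO 1, 2 or 3 (adjusted p up to 0.0814, 0.0805 and 0.0757). Also lost were the calls of Mlxipl and Rxrg without the filter on low counts. Among all metabolic genes named, Etfb, Hk1, Pfkfb1, Idh3b, Mb and Mlxipl share exon bases with another annotated gene.

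Of genes of the integrated stress response and of serine and folate synthesis, 13 of 41 tested (45 listed) were higher and 0 lower (31.7%), with a median log2 fold change of 0.26, and edgeR's 0 lower stood against 1 lower at an unadjusted p under 0.05 and 0 by DESeq2. The counts were 15 higher and 1 lower of 41 with library 4 of METTL5-cKO left out (median 0.30), and with library size alone and all libraries 16 and 0 (median 0.40). ATF4 binds sites with the letters TGATGNAA, and 3 of the higher members that hold these letters on either strand within 250 bases before the RefSeq gene start (GRCm38.p6) are printed to show the site, 5′ to 3′ on the strand of the gene, with the matched letters in capitals. The letters stood in 9 of 32 list members with a promoter sequence (28.1%) and in 3 of the 9 higher members with one (33.3%), against 3.91% of 27025 genes with one. The list gathers genes of the program that ATF4 raises, so its share beside that of all genes does not describe these hearts. The share of the higher members was near that of the whole list. The DR1 motif of PPAR receptors, searched as a pair of AGGTCA hexamers 1 base apart on either strand, stood in none of 47 fatty acid genes with a promoter sequence, and in 0.0407% of all genes. With only 11 of 27025 genes matched, a list of this size could hardly hold a match. Its absence there does not show that the list lacks PPAR sites. A match describes the letters and no binding was measured.
Aars, chr8:111033592-111033841, plus strand: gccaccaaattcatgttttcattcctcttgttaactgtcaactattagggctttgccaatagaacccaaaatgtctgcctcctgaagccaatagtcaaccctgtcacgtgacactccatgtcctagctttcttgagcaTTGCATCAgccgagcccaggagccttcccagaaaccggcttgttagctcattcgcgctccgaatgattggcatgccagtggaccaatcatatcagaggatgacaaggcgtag
Gars, chr6:55037751-55038000, plus strand: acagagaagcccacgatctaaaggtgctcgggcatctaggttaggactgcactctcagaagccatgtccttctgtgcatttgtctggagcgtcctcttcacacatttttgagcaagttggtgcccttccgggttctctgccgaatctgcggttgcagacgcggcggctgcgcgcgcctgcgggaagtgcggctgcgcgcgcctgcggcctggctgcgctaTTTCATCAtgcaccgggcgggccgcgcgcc
Nupr1, chr7:126625471-126625720, minus strand: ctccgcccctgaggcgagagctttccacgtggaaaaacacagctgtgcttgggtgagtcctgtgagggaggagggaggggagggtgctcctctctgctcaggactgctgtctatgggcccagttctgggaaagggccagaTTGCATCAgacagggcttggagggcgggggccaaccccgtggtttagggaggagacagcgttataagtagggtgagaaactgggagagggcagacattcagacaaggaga

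Aars, the alanyl-tRNA synthetase whose promoter holds the site 112 bases before the start, was at 40.3, 35.7, 34.9 and 38.3 CPM in Ctrl libraries 1 to 4 and at 56.96, 55.1, 45.8 and 43.5 CPM in METTL5-cKO libraries 1 to 4, a log2 fold change of 0.43 ± 0.10 (adjusted p = 0.0284, 0.50 without library 4). Gars, the glycyl-tRNA synthetase, was at 43.2, 42.9, 39.9 and 43.3 CPM in Ctrl and 61.2, 50.9, 48.8 and 49.5 CPM in METTL5-cKO hearts, a change of 0.31 ± 0.09 (adjusted p = 0.0432, 0.35 without library 4). Nupr1, a stress-induced chromatin protein, was at 5.41, 4.72, 6.92 and 3.64 CPM in Ctrl and 28.2, 23.3, 17.99 and 6.94 CPM in METTL5-cKO hearts, with library 4 next to the highest Ctrl library, a change of 1.89 ± 0.38 (adjusted p = 0.0174, 2.17 without library 4). The call of Nupr1 was lost without Ctrl 2, Ctrl 4 or METTL5-cKO 2, and those of Aars and Gars without each of 5 and 7 single libraries (adjusted p up to 0.0612, 0.0895 and 0.0981). These 3 genes were chosen for the letters in their promoters, after their values were seen. Mthfd2, the mitochondrial one-carbon enzyme, was at 1.69, 1.26, 2.24 and 1.46 CPM in Ctrl and 7.19, 5.38, 4.16 and 4.59 CPM in METTL5-cKO hearts. All 4 METTL5-cKO libraries were above all Ctrl libraries, and the log2 fold change was 1.68 ± 0.23 (adjusted p = 0.00621, 1.75 without library 4). Eif4ebp1, the inhibitor of cap-dependent translation, was at 68.98, 60.6, 68.9 and 59.3 CPM in Ctrl and 96.9, 106, 89.4 and 83.2 CPM in METTL5-cKO hearts. Eif4ebp1 rose (log2 fold change 0.54 ± 0.10, adjusted p = 0.0127, 0.60 without library 4). Gdf15, a circulating stress hormone of the TGF-beta family, was at 0.694, 1.70, 2.08 and 0.970 CPM in Ctrl and 35.5, 27.7, 9.78 and 8.89 CPM in METTL5-cKO hearts. Gdf15 rose (log2 fold change 3.91 ± 0.55, adjusted p = 0.00716, 4.16 without library 4). Libraries 1 and 2 held more Gdf15 than libraries 3 and 4.

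Of genes of the unfolded protein and heat shock responses, 3 of 50 tested (50 listed) were higher and 0 lower (6%), with a median log2 fold change of 0.02, and edgeR's 0 lower stood against 5 lower at an unadjusted p under 0.05 and 2 by DESeq2. Leaving out METTL5-cKO library 4 gave 5 higher and 5 lower of 50 (median 0.02), and 10 and 0 (median 0.16) in all libraries with scaling by library size alone. Among all genes 6.57% were higher, near the share in this list, and without library 4 the shares were 11.8% and 10%. P4hb, a disulfide isomerase of the endoplasmic reticulum and a subunit of the enzyme that hydroxylates collagen, was at 120.2, 120.1, 117 and 113 CPM in Ctrl and at 242, 233, 215 and 182 CPM in METTL5-cKO hearts. P4hb rose (log2 fold change 0.89 ± 0.09, adjusted p = 0.00253, 0.97 without library 4). The co-chaperone gene Dnajb4 (54.3 to 78.6 CPM in the Ctrl and 96.9 to 109.6 CPM in the METTL5-cKO libraries) rose (log2 fold change 0.56 ± 0.12, adjusted p = 0.0184, 0.59 without library 4). Hspa4, a nucleotide exchange factor of HSP70, was at 84.1, 83.8, 69.5 and 79.2 CPM in Ctrl and 107, 108, 108 and 83.98 CPM in METTL5-cKO hearts, with library 4 inside the Ctrl range. Hspa4 rose (log2 fold change 0.36 ± 0.10, adjusted p = 0.0473, 0.45 without library 4). Of p53 targets, 6 of 30 tested (32 listed) were higher and 0 lower (20%), with a median log2 fold change of 0.25, and edgeR's 0 lower stood against 0 lower at an unadjusted p under 0.05 and 0 by DESeq2. With METTL5-cKO library 4 left out, 8 were higher and 0 lower of 30 (median 0.27), against 9 and 0 (median 0.41) with library size alone and all libraries. Aen, a p53-induced nuclease, was at 17.3, 16.97, 16.7 and 16.2 CPM in Ctrl and 25.7, 24.3, 24.5 and 27.8 CPM in METTL5-cKO hearts, where library 4 was the highest of all. Aen rose (log2 fold change 0.61 ± 0.07, adjusted p = 0.00433, 0.57 without library 4). Perp, a p53-induced desmosome protein, was at 100.3, 109.8, 99.8 and 111 CPM in Ctrl and 141, 152, 172 and 162 CPM in METTL5-cKO hearts. Perp rose (log2 fold change 0.57 ± 0.08, adjusted p = 0.00744, 0.56 without library 4). Phlda3, a p53-induced inhibitor of AKT, was at 6.94, 6.18, 9.57 and 7.42 CPM in Ctrl and 33.5, 27.1, 24.8 and 24.3 CPM in METTL5-cKO hearts. Phlda3 rose (log2 fold change 1.87 ± 0.15, adjusted p = 0.00128, 1.93 without library 4). Calls lost with 1 library left out were that of Dnajb4 without Ctrl 4 or METTL5-cKO 2 (adjusted p up to 0.0626), and that of Hspa4 without Ctrl 1, 2, 3 or 4 or METTL5-cKO 1, 2 or 3 (adjusted p up to 0.131). The alternatives with all libraries ended those of Hspa4 without the filter on low counts.

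Of oxidative stress and antioxidant genes, 8 of 52 tested (53 listed) were higher and 5 lower (15.4% and 9.62%), with a median log2 fold change of 0.02. In the fit without METTL5-cKO library 4, 13 were higher and 11 lower of 52 (median 0.07), and with library size alone and all libraries 12 and 3 (median 0.16). Gpx1, the cytosolic glutathione peroxidase, was at 43.99, 41.6, 48.9 and 44.9 CPM in Ctrl and 73.9, 75.00, 63.3 and 65.5 CPM in METTL5-cKO hearts. Gpx1 rose (log2 fold change 0.63 ± 0.08, adjusted p = 0.00621, 0.66 without library 4), and Gpx8 of the endoplasmic reticulum rose (log2 fold change 0.51 ± 0.12, adjusted p = 0.0258, 0.60 without library 4). Nox4, an oxidase that makes hydrogen peroxide, was at 1.49, 0.973, 0.989 and 0.679 CPM in the Ctrl libraries and at 11.8, 10.7, 11.48 and 1.30 CPM in METTL5-cKO libraries 1 to 4. Libraries 1 to 3 were alike, and library 4 lay within the Ctrl range, so that the groups overlapped. The log2 fold change was 3.10 ± 0.60 (adjusted p = 0.0156, 3.46 without library 4). Among genes that fell, Sod2, the mitochondrial superoxide dismutase, was at 404, 365, 359 and 397 CPM in Ctrl and 266, 259, 259 and 332 CPM in METTL5-cKO hearts. Sod2 fell (log2 fold change -0.45 ± 0.10, adjusted p = 0.0223, -0.54 without library 4). The glutathione transferase genes Gstm7 (15.2 to 20.1 CPM in the Ctrl and 9.09 to 12.2 CPM in the METTL5-cKO libraries) and Gstk1 (49.1 to 54.97 CPM in the Ctrl and 22.7 to 44.2 CPM in the METTL5-cKO libraries) both fell. Gstm7 fell (log2 fold change -0.70 ± 0.12, adjusted p = 0.0106, -0.75 without library 4). Gstk1 fell (log2 fold change -0.85 ± 0.20, adjusted p = 0.0280, -1.12 without library 4). The calls lost when single libraries were left out were that of Gpx8 without Ctrl 1, 2 or 4 or METTL5-cKO 2 or 3 (adjusted p up to 0.0810), that of Nox4 without Ctrl 2 or 4 (adjusted p up to 0.0573), that of Sod2 without Ctrl 2 or 4 or METTL5-cKO 1, 2 or 3 (adjusted p up to 0.0767), and that of Gstk1 without Ctrl 2, 3 or 4 or METTL5-cKO 1, 2 or 3 (adjusted p up to 0.0869). With all libraries, calls were also lost for Gstk1 without the filter on low counts.

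In the list of glucocorticoid, metallothionein and aryl hydrocarbon receptor genes, 3 of 18 tested (18 listed) were higher and 2 lower (16.7% and 11.1%), with a median log2 fold change of 0.02. Without METTL5-cKO library 4 the counts were 3 higher and 2 lower of 18 (median -0.02), and 4 and 2 (median 0.16) in all libraries with scaling by library size alone. Lcn2, an iron-carrying acute phase protein, was at 7.59, 12.7, 6.71 and 6.94 CPM in Ctrl and 18.7, 20.6, 20.3 and 30.9 CPM in METTL5-cKO hearts, with library 4 the highest. Lcn2 rose (log2 fold change 1.41 ± 0.23, adjusted p = 0.0102, 1.23 without library 4). Mt2, a metallothionein that binds zinc, was at 74.2, 41.2, 37.2 and 35.7 CPM in Ctrl and 118, 131, 90.3 and 101 CPM in METTL5-cKO hearts. Mt2 rose (log2 fold change 1.23 ± 0.23, adjusted p = 0.0148, 1.27 without library 4). Fkbp5, a co-chaperone of the glucocorticoid receptor, rose (log2 fold change 0.77 ± 0.19, adjusted p = 0.0318, 0.70 without library 4). The aryl hydrocarbon receptor gene Ahr (4.90 to 6.05 CPM in the Ctrl and 2.105 to 3.65 CPM in the METTL5-cKO libraries) fell (log2 fold change -0.83 ± 0.17, adjusted p = 0.0176, -0.84 without library 4). Its target Cyp1a1 was low (0.496 to 2.19 CPM in the Ctrl and 0 to 0.399 CPM in the METTL5-cKO libraries). Cyp1a1 fell (log2 fold change -3.10 ± 0.74, adjusted p = 0.0280, -3.92 without library 4). Leaving out 1 library ended some calls, namely that of Mt2 without Ctrl 4 (adjusted p up to 0.0516), that of Fkbp5 without Ctrl 1 or 4 or METTL5-cKO 2 or 3 (adjusted p up to 0.0837), that of Ahr without Ctrl 2 (adjusted p up to 0.0506), and that of Cyp1a1 without Ctrl 2, 3 or 4 or METTL5-cKO 1, 2 or 3 (adjusted p up to 0.0814). Also lost were the calls of Fkbp5 and Cyp1a1 without the filter on low counts.

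Of immediate early and MAPK feedback genes, 8 of 28 tested (31 listed) were higher and 0 lower (28.6%), with a median log2 fold change of 0.22, and edgeR's 0 lower stood against 0 lower at an unadjusted p under 0.05 and 0 by DESeq2. The counts were 9 higher and 0 lower of 28 with library 4 of METTL5-cKO left out (median 0.09), against 9 and 0 (median 0.36) with library size alone and all libraries. Egr2, a zinc finger factor induced by growth signals, was at 0.298, 0.535, 0.833 and 0.631 CPM in Ctrl and 3.60, 1.91, 2.83 and 3.40 CPM in METTL5-cKO hearts. Library 4 was among the highest of its group, and the log2 fold change was 2.35 ± 0.30 (adjusted p = 0.00549, 2.28 without library 4). Myc, the growth-promoting transcription factor, was at 3.42, 3.70, 3.12 and 2.04 CPM in Ctrl and 10.04, 8.89, 5.09 and 7.59 CPM in METTL5-cKO hearts. Myc rose (log2 fold change 1.36 ± 0.24, adjusted p = 0.0125, 1.39 without library 4). Junb, a component of AP-1, was at 13.6, 11.7, 11.9 and 10.4 CPM in Ctrl and 25.3, 27.5, 15.8 and 19.6 CPM in METTL5-cKO hearts. Junb rose (log2 fold change 0.89 ± 0.17, adjusted p = 0.0154, 0.95 without library 4). Over the 8 members called higher, the mean log2 level above the Ctrl mean was 1.14, 1.17, 0.88 and 1.17 in METTL5-cKO libraries 1 to 4. These members were called from the same libraries, so a level above Ctrl follows from the choice. Over all 28 tested members the median was 0.04, 0.21, 0.22 and 0.43 in these libraries. Some calls did not survive the loss of 1 library, namely that of Junb without Ctrl 4 (adjusted p up to 0.0541). Of all stress genes named, Mt2, Ahr and Junb share exon bases with another annotated gene. Of 18 circadian clock genes tested, edgeR called 0 in either direction, 2 were higher at an unadjusted p under 0.05 and DESeq2 called 2 higher.

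**Figure D3:**
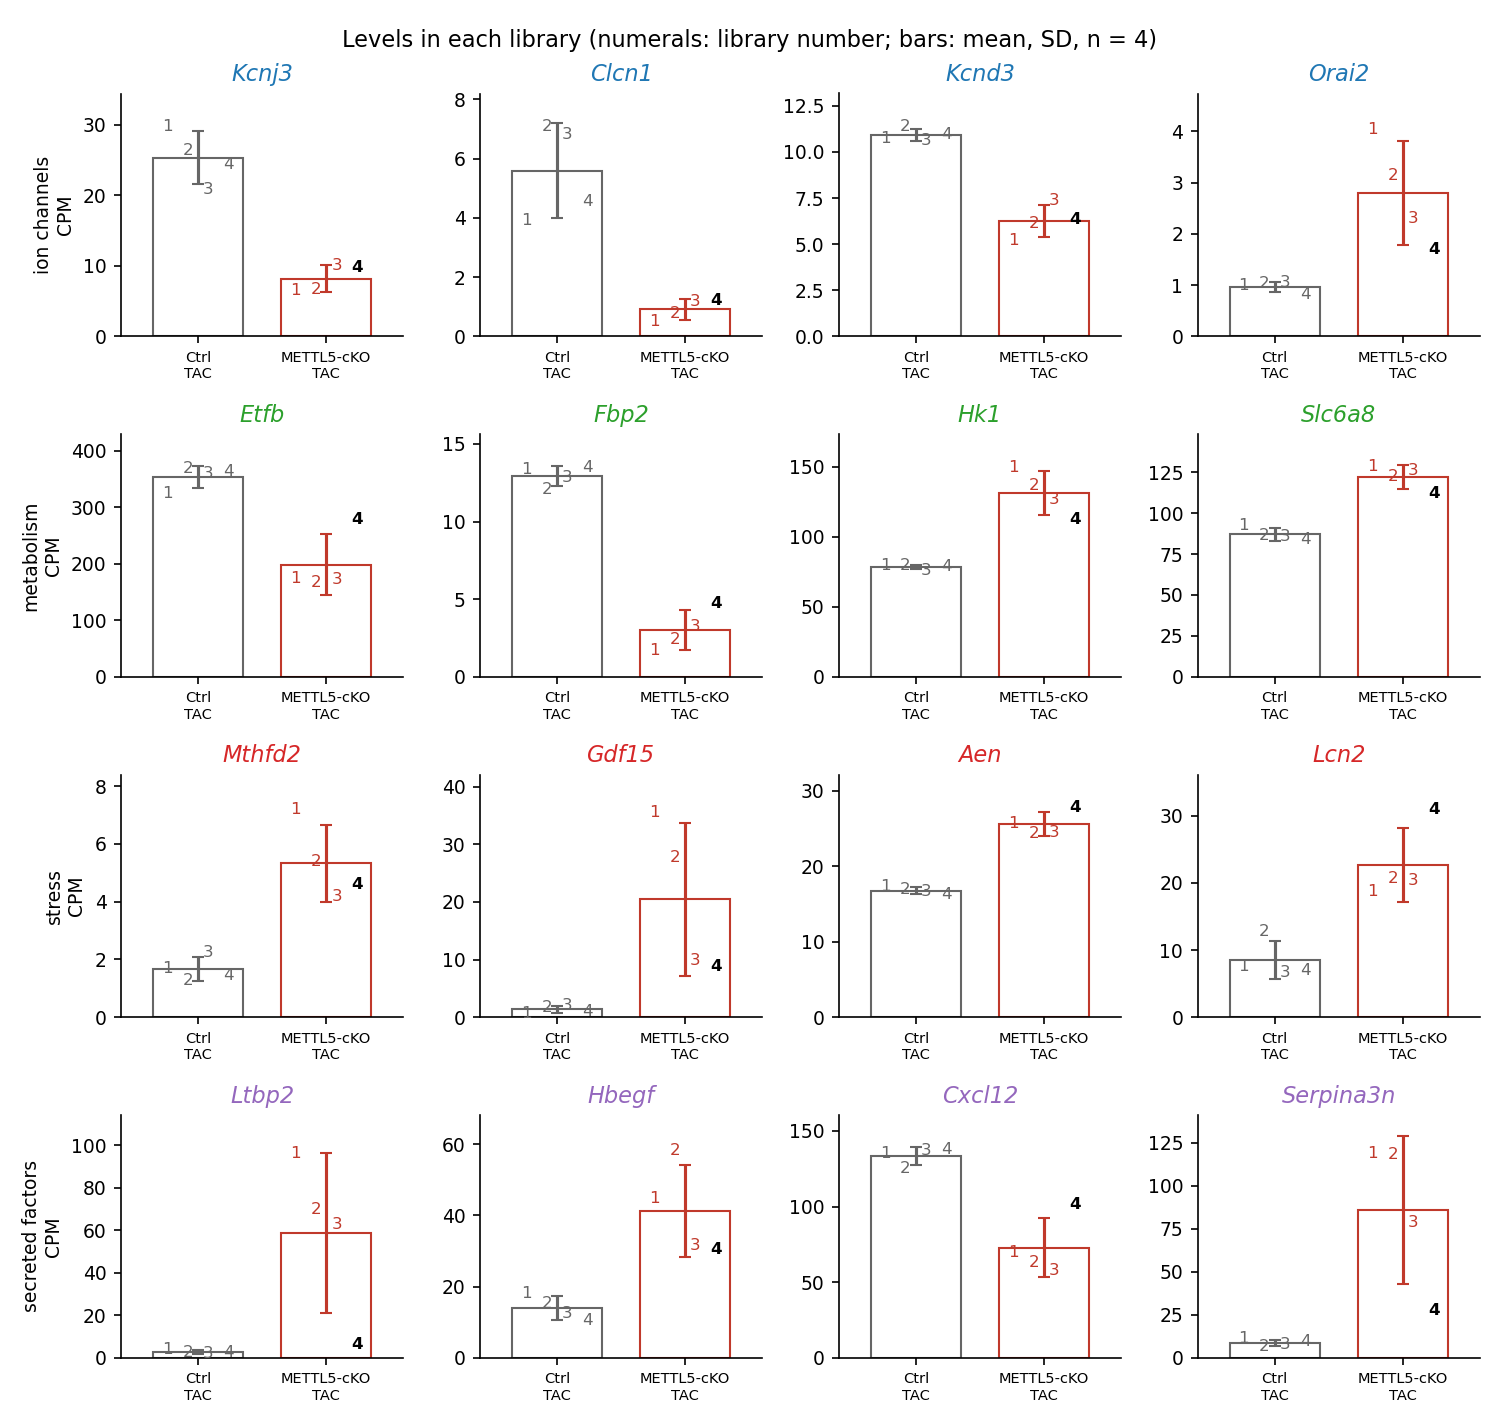
CPM of 16 genes in each library, 4 genes per theme from top (ion channels) to bottom (secreted factors). Bars give the mean and error bars the SD of 4 libraries, numerals the library number, and the bold 4 the METTL5-cKO library that stood apart. In Ltbp2 and Serpina3n library 4 lies at 6.29 and 27.6 CPM, far below the other METTL5-cKO libraries, while in Aen and Lcn2 it is the highest.

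Of TGF-beta family ligands and antagonists, which govern scar formation and growth, 10 of 25 tested (40 listed) were higher and 0 lower (40%), with a median log2 fold change of 0.35, and edgeR's 0 lower stood against 2 lower at an unadjusted p under 0.05 and 0 by DESeq2. Leaving out METTL5-cKO library 4 gave 13 higher and 2 lower of 25 (median 0.45), and with library size alone and all libraries 11 and 0 (median 0.50). Ltbp2, a matrix protein of the family that binds latent TGF-beta, was at 3.92, 2.58, 1.98 and 2.43 CPM in Ctrl libraries 1 to 4 and at 96.1, 69.8, 62.6 and 6.29 CPM in METTL5-cKO libraries 1 to 4. Library 4 was above the Ctrl libraries but far below the other 3, and the log2 fold change was 4.43 ± 0.71 (adjusted p = 0.00963, 4.81 without library 4). Fstl3, which binds and blocks activins, was at 7.19, 8.27, 6.30 and 7.18 CPM in Ctrl and 25.7, 26.1, 19.4 and 14.3 CPM in METTL5-cKO hearts. Fstl3 rose (log2 fold change 1.56 ± 0.19, adjusted p = 0.00481, 1.72 without library 4). Of WNT ligands and secreted antagonists, 4 of 11 tested (34 listed) were higher and 1 lower (36.4% and 9.09%), with a median log2 fold change of 0.64. With METTL5-cKO library 4 left out, 6 were higher and 1 lower of 12 (median 0.62), and 4 and 1 (median 0.78) in all libraries with scaling by library size alone. The secreted WNT antagonist gene Frzb was at 3.07, 2.48, 2.13 and 2.47 CPM in Ctrl and 24.6, 14.4, 14.7 and 6.14 CPM in METTL5-cKO hearts. Frzb rose (log2 fold change 2.55 ± 0.37, adjusted p = 0.00744, 2.82 without library 4). Sfrp2, of the same family, was at 1.98, 1.41, 2.13 and 2.72 CPM in Ctrl and 25.6, 11.6, 18.1 and 5.44 CPM in METTL5-cKO hearts. Sfrp2 rose (log2 fold change 2.88 ± 0.44, adjusted p = 0.00895, 3.16 without library 4). Dkk3 rose from 1.44, 1.26, 2.34 and 1.65 CPM to 13.7, 10.9, 14.03 and 3.64 CPM (log2 fold change 2.66 ± 0.40, adjusted p = 0.00851, 2.95 without library 4). Wif1, another inhibitor that binds WNT ligands, had 19 to 29 counts in the Ctrl libraries, 0 in METTL5-cKO libraries 1 to 3 and 4 in library 4. It fell, with levels of 0.942 to 1.51 CPM in Ctrl and at most 0.20 CPM in METTL5-cKO hearts (adjusted p = 0.00706, 0.000491 without library 4). The fibroblast and activated fibroblast marker sums were higher in METTL5-cKO hearts beside these genes, of which Wif1 fell. The part of these sums in the result was not tested. Ltbp2 itself stands in the activated fibroblast list.

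Among IGF, EGF, FGF, PDGF, VEGF and neurotrophic factors, 10 of 40 tested (53 listed) were higher and 4 lower (25% and 10%), with a median log2 fold change of 0.06. In the fit without METTL5-cKO library 4, 13 were higher and 7 lower of 41 (median 0.19), against 14 and 3 (median 0.22) with library size alone and all libraries. Hbegf, an EGF receptor ligand made by strained myocytes and other cells, was at 18.1, 15.2, 12.3 and 10.5 CPM in Ctrl and 44.8, 58.1, 31.6 and 30.4 CPM in METTL5-cKO hearts. Hbegf rose (log2 fold change 1.55 ± 0.24, adjusted p = 0.00857, 1.68 without library 4). Ereg, another ligand of this receptor, was at 0.0992, 0.243, 0 and 0 CPM in Ctrl and 2.76, 1.55, 1.13 and 0.899 CPM in METTL5-cKO hearts. It was close to absent in Ctrl hearts, with 0 to 5 counts per library, and rose (adjusted p = 0.0106, 0.00267 without library 4). Ndnf, a secreted neurotrophic and vascular factor, was at 2.28, 1.799, 1.51 and 2.43 CPM in Ctrl and 4.12, 5.47, 5.82 and 5.39 CPM in METTL5-cKO hearts, with library 4 inside the range of the other METTL5-cKO libraries. Ndnf rose (log2 fold change 1.37 ± 0.18, adjusted p = 0.00573, 1.36 without library 4). Of factors that act on vessels, Angpt1, the ligand of the receptor TEK, was at 9.92, 10.4, 6.71 and 10.2 CPM in Ctrl and 4.78, 4.60, 6.22 and 4.29 CPM in METTL5-cKO hearts. Angpt1 fell (log2 fold change -0.90 ± 0.17, adjusted p = 0.0143, -0.83 without library 4). Pdgfb, which recruits pericytes, was at 40.02, 40.7, 46.2 and 46.5 CPM in Ctrl and 23.5, 29.3, 25.3 and 36.8 CPM in METTL5-cKO hearts. Pdgfb fell (log2 fold change -0.59 ± 0.14, adjusted p = 0.0255, -0.73 without library 4). Egf fell (log2 fold change -1.20 ± 0.25, adjusted p = 0.0182, -1.20 without library 4). Calls lost with 1 library left out were that of Angpt1 without Ctrl 4 (adjusted p up to 0.0516), that of Pdgfb without Ctrl 2, 3 or 4 or METTL5-cKO 1, 2 or 3 (adjusted p up to 0.0808), and that of Egf without Ctrl 4 or METTL5-cKO 3 (adjusted p up to 0.0533). With all libraries, calls were also lost for Pdgfb without the filter on low counts. The endothelial marker sum was lower in METTL5-cKO hearts beside Pdgfb, and its part in the result was not tested.

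Of peptide hormones and vasoactive factors, 6 of 18 tested (51 listed) were higher and 2 lower (33.3% and 11.1%), with a median log2 fold change of 0.13. Without METTL5-cKO library 4 the counts were 6 higher and 5 lower of 18 (median 0.15), and with library size alone and all libraries 7 and 2 (median 0.26). Ace, the angiotensin-converting enzyme, was at 76.2, 66.6, 66.4 and 65.3 CPM in Ctrl and 202, 166, 150.4 and 97.2 CPM in METTL5-cKO hearts, with library 4 the lowest of its group. Ace rose (log2 fold change 1.17 ± 0.19, adjusted p = 0.00994, 1.34 without library 4). The natriuretic peptide gene Nppa was at 338, 366, 494 and 546 CPM in Ctrl and 5769, 5398, 6163 and 2223 CPM in METTL5-cKO hearts. Nppa rose (log2 fold change 3.49 ± 0.32, adjusted p = 0.00158, 3.73 without library 4). Nppb, the gene of its ventricular relative, was at 133, 372, 331 and 274 CPM in Ctrl and 999.5, 771, 629 and 680.1 CPM in METTL5-cKO hearts, with library 4 inside the range of the other METTL5-cKO libraries. Nppb rose (log2 fold change 1.47 ± 0.29, adjusted p = 0.0157, 1.53 without library 4). Apln, the peptide ligand of the apelin receptor, was at 9.32, 5.45, 8.43 and 7.23 CPM in Ctrl and 4.56, 3.78, 2.99 and 4.44 CPM in METTL5-cKO hearts. Apln fell (log2 fold change -0.95 ± 0.19, adjusted p = 0.0172, -1.004 without library 4). Fndc5, the precursor of irisin, was at 276, 243, 235 and 263 CPM in Ctrl and 164, 147, 139 and 200.3 CPM in METTL5-cKO hearts. Fndc5 fell (log2 fold change -0.65 ± 0.12, adjusted p = 0.0139, -0.76 without library 4). The calls lost when single libraries were left out were that of Nppb without Ctrl 4 (adjusted p up to 0.0545), and that of Apln without Ctrl 4 or METTL5-cKO 2 (adjusted p up to 0.0562).

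Of cytokine genes, 3 of 21 tested (49 listed) were higher and 3 lower (14.3% and 14.3%), with a median log2 fold change of 0.06. The counts were 6 higher and 4 lower of 23 with library 4 of METTL5-cKO left out (median 0.13), and 6 and 2 (median 0.23) in all libraries with scaling by library size alone. Spp1, osteopontin, was low at 0.446, 0.243, 0.208 and 0.243 CPM in Ctrl and 2.02, 2.096, 1.54 and 0.599 CPM in METTL5-cKO hearts. Spp1 rose (log2 fold change 2.44 ± 0.43, adjusted p = 0.0127, 2.70 without library 4). Lgals3, galectin-3, rose (log2 fold change 1.44 ± 0.29, adjusted p = 0.0180, 1.64 without library 4). Il15, a lymphocyte growth factor also made by muscle, was at 17.6, 13.5, 13.1 and 13.4 CPM in Ctrl and 6.23, 8.57, 8.33 and 8.64 CPM in METTL5-cKO hearts. Il15 fell (log2 fold change -0.86 ± 0.14, adjusted p = 0.00953, -0.90 without library 4). Tnfsf10, the death ligand TRAIL, was at 12.3, 8.80, 11.7 and 11.1 CPM in Ctrl and 4.08, 5.74, 5.62 and 5.04 CPM in METTL5-cKO hearts. Tnfsf10 fell (log2 fold change -1.10 ± 0.14, adjusted p = 0.00561, -1.08 without library 4). Kitl, stem cell factor, fell (log2 fold change -0.65 ± 0.17, adjusted p = 0.0344, -0.79 without library 4). Leaving out 1 library ended some calls, namely that of Lgals3 without Ctrl 2 or 4 or METTL5-cKO 2 (adjusted p up to 0.0608), and that of Kitl without Ctrl 2, 3 or 4 or METTL5-cKO 1, 2 or 3 (adjusted p up to 0.101). The alternatives with all libraries ended those of Kitl without the filter on low counts, and Kitl with library size alone. The macrophage and fibroblast marker sums were higher in METTL5-cKO hearts beside the genes that rose, and their part in the result was not tested.

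Of chemokine and complement genes, 6 of 29 tested (54 listed) were higher and 3 lower (20.7% and 10.3%), with a median log2 fold change of 0.35. Leaving out METTL5-cKO library 4 gave 7 higher and 4 lower of 30 (median 0.33), against 7 and 3 (median 0.47) with library size alone and all libraries. Cxcl12, a chemokine of endothelial and stromal cells, was at 135, 125, 137 and 138 CPM in Ctrl and 69.4, 63.2, 57.4 and 102 CPM in METTL5-cKO hearts, where library 4 lay between the groups. Cxcl12 fell (log2 fold change -0.88 ± 0.16, adjusted p = 0.0139, -1.07 without library 4). Cx3cl1, fractalkine, was at 5.85, 3.94, 5.83 and 5.19 CPM in Ctrl and 17.8, 13.2, 13.1 and 7.44 CPM in METTL5-cKO hearts. Cx3cl1 rose (log2 fold change 1.31 ± 0.24, adjusted p = 0.0142, 1.51 without library 4). C1ra, a protease of the classical complement pathway, was at 7.98, 7.83, 8.59 and 6.94 CPM in Ctrl and 15.04, 12.5, 12.5 and 11.8 CPM in METTL5-cKO hearts. C1ra rose (log2 fold change 0.73 ± 0.10, adjusted p = 0.00744, 0.78 without library 4). Ccl11, the eosinophil chemokine eotaxin, fell (log2 fold change -1.67 ± 0.43, adjusted p = 0.0350, -2.07 without library 4). C8g, a chain of complement component C8, fell (log2 fold change -1.01 ± 0.24, adjusted p = 0.0262, -1.23 without library 4). Cfb, factor B of the alternative complement pathway (GRCm38, chromosome 17, 34856374 to 34862518 on the minus strand), had at most 4 counts in each Ctrl library and was at 3.38, 3.33, 2.95 and 2.097 CPM in METTL5-cKO hearts (adjusted p = 0.00229, 0.000394 without library 4). Gm20547 (34856412 to 34882042, same strand) shares exon bases with it and fell from 2.48, 1.51, 2.08 and 1.12 CPM to at most 0.05 CPM, at least 12.7-fold (floor of 3 counts per library, adjusted p = 0.00128, 0.000447 without library 4). Since the estimated counts divide reads between overlapping genes, neither value is certain by itself. Some calls did not survive the loss of 1 library, namely that of Ccl11 without Ctrl 2, 3 or 4 or METTL5-cKO 1, 2 or 3 (adjusted p up to 0.0983), and that of C8g without Ctrl 1, 2 or 4 or METTL5-cKO 1, 2 or 3 (adjusted p up to 0.0883). With all libraries, calls were also lost for Ccl11 and C8g without the filter on low counts. The fibroblast and macrophage marker sums (higher) and the endothelial one (lower) moved beside these genes, and the part of these cells in the result was not tested.

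Of serpin genes, which inhibit proteases, 7 of 17 tested (64 listed) were higher and 0 lower (41.2%), with a median log2 fold change of 1.00, and edgeR's 0 lower stood against 0 lower at an unadjusted p under 0.05 and 0 by DESeq2. With METTL5-cKO library 4 left out, 13 were higher and 0 lower of 18 (median 1.33), and with library size alone and all libraries 10 and 0 (median 1.17). Serpina3n, an acute phase inhibitor, was at 10.9, 6.37, 7.70 and 9.31 CPM in Ctrl and 119, 118, 78.7 and 27.6 CPM in METTL5-cKO hearts. Serpina3n rose (log2 fold change 3.32 ± 0.42, adjusted p = 0.00561, 3.62 without library 4). Serpinb1c was at 0.595, 0.292, 0.520 and 1.46 CPM in Ctrl and 15.9, 10.8, 7.64 and 4.04 CPM in METTL5-cKO hearts. Serpinb1c rose (log2 fold change 3.73 ± 0.52, adjusted p = 0.00706, 3.99 without library 4). In Serpina3n and Serpinb1c, METTL5-cKO library 4 was the lowest of its group and still above every Ctrl library. The median log2 level of the list above the Ctrl mean was 1.46, 1.098, 0.87 and 0.35 in METTL5-cKO libraries 1 to 4, beside 1.17, 0.71, 0.91 and 0.33 for the fibroblast markers, 4.37, 3.78, 3.58 and 0.78 for those of activated fibroblasts and 0.71, 0.46, 0.26 and 0.25 for those of macrophages. Their part in the result was not tested. Close paralogs exist for Serpina3n, Serpinb1c and, among complement genes, C1ra, which leaves the split of reads between copies uncertain. Of all secreted factor genes named, Fstl3, Ltbp2, Ereg, Angpt1, Egf, Sfrp2, Nppa, Ace, Spp1 and Cfb share exon bases with another annotated gene.

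Several strongly changed genes stood outside the lists, and they were named for a small adjusted p among dysregulated genes with separate groups. Efhd2, a calcium-binding regulator of actin, was at 21.03, 18.9, 21.2 and 18.1 CPM in Ctrl and 78.7, 79.6, 68.6 and 52.5 CPM in METTL5-cKO hearts. Efhd2 rose (log2 fold change 1.82 ± 0.14, adjusted p = 0.00128, 1.94 without library 4). Mybpc2, the myosin-binding protein C of fast skeletal muscle, was at 18.4, 18.3, 18.4 and 18.4 CPM in Ctrl and 49.8, 49.8, 35.5 and 42.99 CPM in METTL5-cKO hearts, and its Ctrl libraries were nearly alike. It rose (log2 fold change 1.28 ± 0.11, adjusted p = 0.00128, 1.30 without library 4). Lman1l rose (log2 fold change 1.97 ± 0.15, adjusted p = 0.00128, 2.04 without library 4). The processed pseudogenes Gm47692 and Gm17228, whose counts can be shared with their parent genes and, for Gm47692, with the exons of Vmn1r55 and Gm26217 that overlap it, both rose. Gm47692 rose (log2 fold change 1.30 ± 0.11, adjusted p = 0.00128, 1.27 without library 4). Gm17228 rose (log2 fold change 1.67 ± 0.15, adjusted p = 0.00128, 1.65 without library 4). Among genes that fell, Immp2l, a peptidase of the inner mitochondrial membrane, was at 11.8, 10.1, 11.7 and 9.85 CPM in Ctrl and 4.30, 3.78, 4.16 and 4.79 CPM in METTL5-cKO hearts and fell (log2 fold change -1.35 ± 0.11, adjusted p = 0.00128, -1.40 without library 4). The guanylate-binding protein gene Gbp5 fell (log2 fold change -1.05 ± 0.11, adjusted p = 0.00245, -0.96 without library 4). Gm31251, an RNA antisense to Myh7, was at 18.99, 23.1, 20.6 and 23.3 CPM in Ctrl and 9.03, 6.29, 7.44 and 10.4 CPM in METTL5-cKO hearts. Gm31251 fell (log2 fold change -1.38 ± 0.15, adjusted p = 0.00286, -1.49 without library 4). The strand setting of the counting is not given in the sources used here, so its reads and those of Myh7 cannot be told apart.

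The genotype effect after TAC was set against that of unstressed hearts at 3 months, where 8 of 16391 genes were higher (0.0488%) and 4 lower (0.0244%), 0.0732% in all. A fit of the 16 libraries tested the difference of the effects for 17070 genes. By edgeR with adjusted p, 1 gene had a higher effect after TAC and none had a lower one (0.00586% in either direction). At an unadjusted p under 0.05 the counts were 1128 and 883. DESeq2 called 163 and 68, and edgeR called 372 and 307 without METTL5-cKO library 4. The 1 gene was Dipk2a, which encodes a secreted kinase-like protein, with 27.5, 30.1, 27.7 and 25.6 CPM in Ctrl and 42.4, 46.98, 41.1 and 39.99 CPM in METTL5-cKO hearts after TAC. Its log2 fold change was 0.62 ± 0.08 (adjusted p = 0.00582, 0.66 without library 4), against -0.22 ± 0.09 at 3 months, and the difference was 0.85 ± 0.12 (adjusted p = 0.0343). The call was lost in 11 of the 16 fits that left out 1 library, among them the fits lacking any 1 Ctrl library after TAC or METTL5-cKO library 1 or 2 after TAC (adjusted p up to 0.143), and with library size alone (0.0731) and no filter on low counts (0.0819). Of the other genes with the smallest p of this test, none passed. Aqp4, a water channel, fell (log2 fold change -2.43 ± 0.50, adjusted p = 0.0183, -2.99 without library 4) after TAC and was at 0.66 ± 0.18 at 3 months, a difference of -3.08 ± 0.52 (adjusted p = 0.0935). Map1a, a microtubule-associated protein, rose (log2 fold change 1.148 ± 0.20, adjusted p = 0.0130, 1.33 without library 4) after TAC, against -0.18 ± 0.11 at 3 months, a difference of 1.35 ± 0.25 (adjusted p = 0.120). The call of Aqp4 after TAC was lost without Ctrl library 2 or 4 (adjusted p up to 0.0599). The differences of Nppa and Fbp2 were 2.41 ± 0.39 (adjusted p = 0.0935) and -1.72 ± 0.29 (adjusted p = 0.0935). Of the genes named from the lists, Phlda3 (1.32 ± 0.13) and Ndnf (1.68 ± 0.19) both also passed the test at 3 months. Some that did not pass there had similar estimates with and without TAC. At 3 months Perp was at 0.58 ± 0.09, Mt2 at 1.22 ± 0.30 and Apln at -0.87 ± 0.21. Others had smaller estimates there, such as Hbegf (0.02 ± 0.22) and Clcn1 (-0.19 ± 0.39). The difference passed for none of these. The paper lists Nppa, Kcnv2 and Mt2 among the genes dysregulated in unstressed METTL5-cKO hearts.

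**Figure D4:**
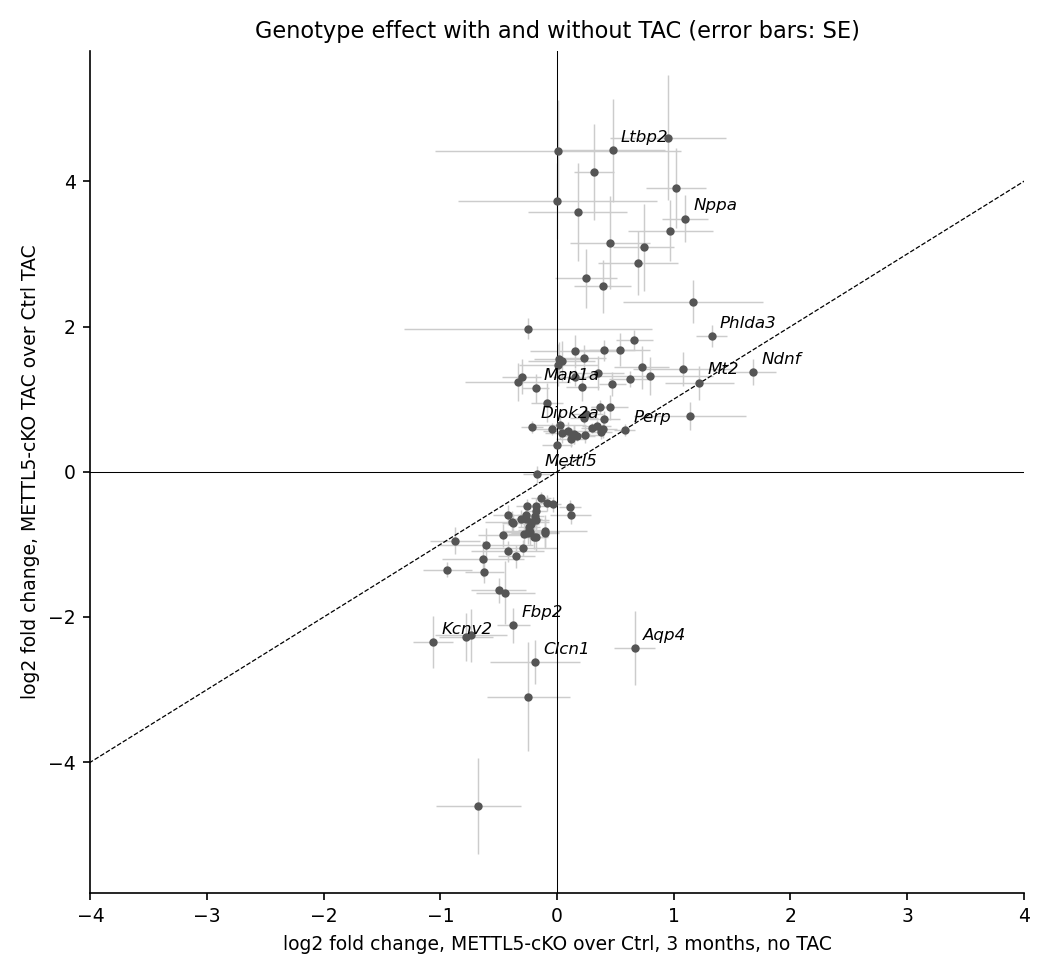
Log2 fold change of METTL5-cKO over Ctrl hearts after TAC (vertical) against that of unstressed hearts at 3 months (horizontal) for 109 named genes with values in both fits. Points are estimates, error bars the SE, and the dashed line marks equal effects. Dipk2a, at 0.62 after TAC and -0.22 at 3 months, is the gene whose difference passed the test with all 16 libraries and in 5 of 16 fits without 1 library.

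The spread within METTL5-cKO hearts was larger than within Ctrl hearts for 9288 of 16340 genes (56.8%). The SD of log2 CPM was over 2 times that of Ctrl for 3489 genes (21.4%), and the reverse held for 1967 (12.0%). With 3 METTL5-cKO libraries against 4 of Ctrl, the 2 counts were 2378 and 3866 without library 4, 3313 and 2907 without library 1, 3983 and 2468 without library 2, and 3588 and 2763 without library 3. The reverse count was thus higher with any 1 library left out, and the first count was lower than the reverse only without library 4. The larger SD lay in METTL5-cKO hearts for 7224 genes without library 4, and for 8722, 9417 and 8962 without libraries 1, 2 and 3. In the TGF-beta list, 24 of 25 members were more variable in METTL5-cKO hearts, with a median SD of 0.42 against 0.16. In the p53 list the SD was larger in METTL5-cKO hearts for 13 of 30 members, and in the tricarboxylic acid list for 9 of 25. Without library 4 these counts were 20 of 25, 12 of 30 and 5 of 25, and without each of the others 21 to 24, 11 to 15 and 9 to 14. The dysregulated genes with at least 1 CPM in every METTL5-cKO library and the largest SD within that group were Comp, Thbs4, Ltbp2, Dio2, Cilp and Fmod, of which Comp, Thbs4, Ltbp2 and Cilp also stand in the activated fibroblast marker list. Comp, a cartilage matrix protein, was at 0.843, 1.12, 1.30 and 1.75 CPM in Ctrl and 66.3, 29.03, 24.7 and 2.15 CPM in METTL5-cKO libraries 1 to 4. Thbs4, a thrombospondin, was at 97.8, 74.4, 51.2 and 7.64 CPM, Cilp at 158, 113, 83.2 and 13.8 CPM and Fmod at 18.5, 12.6, 7.48 and 1.498 CPM in the METTL5-cKO libraries, against 2.43 to 4.22, 3.89 to 14.1 and 0.776 to 0.893 CPM in Ctrl. Dio2, which activates thyroid hormone, was at 1.14, 0.875, 0.624 and 1.21 CPM in Ctrl and 14.7, 10.2, 8.53 and 1.148 CPM in METTL5-cKO hearts, with library 4 inside the Ctrl range, and library 4 also lay inside it for Cilp. In all 6 genes library 1 was the highest of the METTL5-cKO libraries and library 4 the lowest. Their log2 fold changes were 4.60 (Comp, 4.995 without library 4), 4.13 (Thbs4, 4.50 without library 4), 4.43 (Ltbp2, 4.81 without library 4), 3.16 (Dio2, 3.52 without library 4), 3.58 (Cilp, 3.95 without library 4) and 3.61 (Fmod, 3.97 without library 4). Calls lost with 1 library left out were that of Dio2 without Ctrl 2, 3 or 4 or METTL5-cKO 2 (adjusted p up to 0.0556), and those of Cilp and Fmod without Ctrl 4 (adjusted p up to 0.0536 and 0.0506).

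The place of METTL5-cKO library 4 differed between gene groups. For each gene called without it, its position was set to 0 at the mean of the Ctrl libraries and to 1 at the mean of METTL5-cKO libraries 1 to 3. Over all 3842 such genes the median position was 0.34, and 68.0% lay closer to Ctrl. For METTL5-cKO libraries 1, 2 and 3, taken out in turn in the same way, the median was 1.28, 1.12 and 0.93 over 964, 535 and 1015 genes. Library 4 was then among the libraries that called the genes and set the point 1. These medians are therefore not on the same footing as 0.34. The median position of library 4 was 0.24 (12 genes) for the tricarboxylic acid cycle, 0.21 (16 genes) for potassium channels, 0.27 (24 genes) for oxidative stress genes, 0.31 (34 genes) for fatty acid oxidation and 0.36 (15 genes) for the TGF-beta family. It was 0.96 (8 genes) for p53 targets, 0.89 (5 genes) for the glucocorticoid, metallothionein and aryl hydrocarbon receptor list, and 0.82 (9 genes) for immediate early genes. In the p53 list 5 of 8 genes and among immediate early genes 7 of 9 lay closer to the other METTL5-cKO libraries, while in the tricarboxylic acid list all 12 lay closer to Ctrl. These positions describe 1 library and were not tested.

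**Figure D5:**
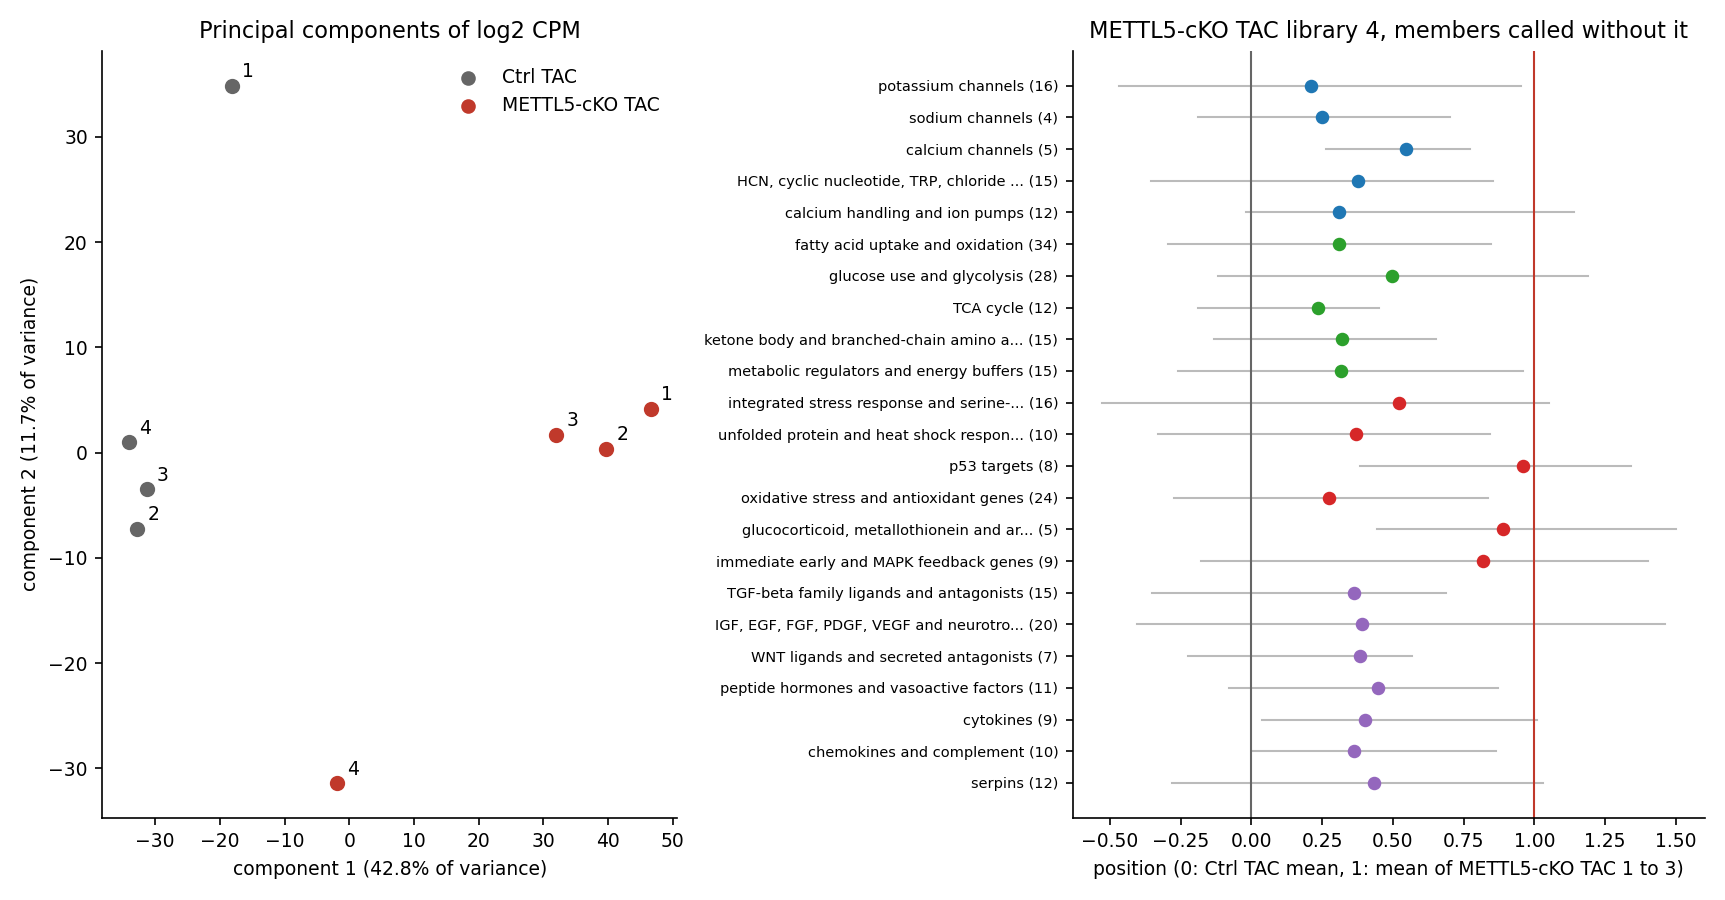
Left, the first and second principal components of log2 CPM for the 8 libraries (numbers are library numbers). Right, the position of METTL5-cKO library 4 between the Ctrl mean (0) and the mean of METTL5-cKO libraries 1 to 3 (1), as the median (point) and range (line) over the members of each list called without it, with their number in brackets. Library 4 lies between the groups on the left, and on the right its median is 0.96 for p53 targets and 0.24 for the tricarboxylic acid cycle.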

How the data were processed

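RNA of whole hearts after TAC was measured in 4 METTL5-cKO and 4 Ctrl libraries, prepared by the BGISEQ protocol from total RNA. Per the labels and the study's methods, the authors aligned reads to GRCm38 with HISAT2 (2.0.4) and deposited estimated counts per gene from StringTie (2.1.4), which are whole numbers without scaling. DESeq2 1.4.5 also stands in the submitters' processing notes. StringTie divides reads between overlapping genes, so that such counts are estimates. The strand setting is not given in the sources used here. Reads without molecular identifiers are not independent molecules, and since the labels do not say that samples came from separate animals, p-values measure only the spread between samples, which may be technical. Column names gave each library's group but no replicate number of the labels, and libraries are numbered 1 to 4 in the order of the numbers they carry.

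From the 55487 genes listed, filterByExpr (minimum count 10, minimum total 15) kept 16340. They were tested in edgeR 4.0.16 (limma 3.58.1, R 4.3.3) with TMM, glmQLFit, glmQLFTest and Benjamini-Hochberg adjustment over all genes tested. Totals of 19899033 to 21804907 counts and 4 libraries per group gave a median SE of 0.135 for a log2 fold change and a common coefficient of variation of 0.159. An exact permutation test (two-sided, mean log2 CPM with prior count 2, all 70 labelings) was run on each named gene. It gave 0.0286, the smallest p possible, for the 105 of 115 named genes whose groups did not overlap, and at most 0.0857 for the other called ones. Groups without overlap fix this smallest p, and the genes were picked from the same libraries, so it is no separate evidence for them. The interaction was fitted over 16 libraries. On simulated counts of these 16340 genes, 17, 34, 46 and 45 of 50 genes changed 1.5-, 2-, 4- and 8-fold were recovered, with 6 false calls. The simulated counts varied independently from gene to gene, so no simulated library stood apart as METTL5-cKO library 4 did.

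The 23 lists and the members were chosen with earlier results of these data known. In each list up to 3 higher and 3 lower genes with the smallest adjusted p were named, then the 6 higher and 6 lower dysregulated genes with the smallest adjusted p and separate groups, the 6 with the largest SD in METTL5-cKO, the 6 with the smallest interaction p, and Mettl5. Exon overlaps and positions come from GENCODE M21 (GRCm38), in which 16316 of 16340 IDs matched and 35 of the 115 named genes overlap another gene. A few genes picked by these rules are not reported here, and counts of named genes include them. Promoters come from RefSeq (GRCm38.p6), and those on chromosome 18 were left out. Alternatives were DESeq2 1.42.0, its size factors, library size alone, no filter, 10 counts in every sample and leaving out each library. Libraries of a group differed by a chi-square of 4.79 or more per degree of freedom, so none was a duplicate. The table of unstressed hearts at 3 months served for the fit at that age and for the interaction. The remaining tables of the series were not used here.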

Additional observations from a re-analysis of the deposited data

Results flagged for a closer look

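Among the 115 named genes, 26 values stood apart from the other 3 libraries of their group by Dixon's criterion at its 95% critical value, over 230 groups looked at, where chance gives about 1 in 20 groups. Of these, 12 belonged to METTL5-cKO library 4. In that library the higher values were those of Atp1b2 (17.4 CPM, others 13.9 to 14.2), Hrc (404 CPM, others 222 to 235), Etfb (279 CPM, others 166 to 175), Suclg1 (185 CPM, others 144 to 146), Idh3b (426 CPM, others 312 to 329.7), Bckdhb (29.1 CPM, others 19.1 to 19.7), Sod2 (332 CPM, others 259 to 266), Gstk1 (44.2 CPM, others 22.7 to 24.1), Lcn2 (30.9 CPM, others 18.7 to 20.6) and Wif1 (0.200 CPM, others 0). Its lower values were those of Hspa4 (83.98 CPM, others 107 to 108) and Nox4 (1.30 CPM, others 10.7 to 11.8). All but Lcn2 lay on the side of the Ctrl libraries. The mitochondrially encoded share of that library, 35.6%, lay at the top of the Ctrl range, and its part in these values was not tested.

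In the other METTL5-cKO libraries, P2rx5 (19.3 CPM, others 15.03 to 15.4) and Gm20547 (0.0456 CPM, others 0) stood apart in library 2, where the Gm20547 value is 1 count, and Nr4a1 (43.6 CPM, others 28.8 to 29.8) and Il15 (6.23 CPM, others 8.33 to 8.64) in library 1. Among Ctrl libraries, Mt2 (74.2 CPM, others 35.7 to 41.2), Ace (76.2 CPM, others 65.3 to 66.6), Spp1 (0.446 CPM, others 0.208 to 0.243) and Il15 (17.6 CPM, others 13.1 to 13.5) stood apart in library 1, Lcn2 (12.7 CPM, others 6.71 to 7.59) in library 2, Suclg1 (198 CPM, others 232 to 235), Angpt1 (6.71 CPM, others 9.92 to 10.4) and Mettl5 (5.62 CPM, others 7.10 to 7.14) in library 3, and Sdhb (589 CPM, others 562 to 565) and Rxrg (38.8 CPM, others 34.1 to 34.4) in library 4. The genotype effect of Dipk2a differed between hearts after TAC and unstressed hearts at 3 months by 0.85 on the log2 scale, by the interaction test given above, a call kept in 5 of 16 fits without 1 library.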

How the results depend on the processing

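No paired analysis was possible because the columns of the table carry no replicate number of the labels. For each result the range without 1 library is given from lowest to highest. Genes higher ranged from 291 to 1973 and lower from 188 to 1926, and dysregulated higher from 159 to 522 and lower from 58 to 305, each lowest without Ctrl library 4 and highest without METTL5-cKO library 4. Ion channels ranged from 3 to 20 higher and 10 to 33 lower, metabolism from 6 to 18 and 7 to 86, stress from 12 to 53 and 1 to 19, and secreted factors from 25 to 64 and 5 to 23. The interaction ranged from 0 to 372 higher and 0 to 307 lower. The spread counts ranged from 2378 to 3983 (SD over 2 times that of Ctrl), 2468 to 3866 (the reverse) and 7224 to 9417 (larger). Without the filter on low counts, 641 genes were higher and 411 lower, 95 were dysregulated lower, ion channels held 5 higher, metabolism 9 and 18, stress 27 and 3 and secreted factors 8 lower genes, and the interaction none, with more genes tested. With library size alone, 2060 genes were higher and 524 lower, 92 were dysregulated lower, ion channels held 19 higher genes, the interaction held 0, and the share of higher genes among called ones was 79.7% against 51.9%. DESeq2 gave 66 lower metabolic and 13 lower stress genes and 163 and 68 interactions. The cause was not tested. DESeq2's size factors and 10 counts in every sample moved no count named here by over 1.5 times. Of 114 named genes called, 67 kept their call in every alternative that gave them a value, 47 lost it in at least 1 and 44 without Ctrl library 4. Mettl5 alone changed sign, to 0.11 with library size alone, and ranged from -0.10 without Ctrl library 3 to 0.035 without METTL5-cKO library 2. With 4 libraries per group, the simulation recovered 17 of 50 genes changed 1.5-fold, so smaller changes were often not detectable in it. It held no library that stood apart, so its rates may not hold for these libraries.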
